A study of Mus musculus with 9 samples.

Results

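The circadian clock genes described here are 10 genes chosen by name: the activators Arntl (Bmal1), Npas2 and Clock, the repressors Cry1, Per1, Per2 and Per3, the nuclear receptors Nr1d1 and Nr1d2 (REV-ERB alpha and beta) and the output factor Dbp. All 10 were found among the 28956 rows of the raw count table, and all 10 were among the 17582 genes that passed the filter on low counts. RNA of mouse liver was sequenced in 9 libraries of 3 groups with 3 libraries each. In APAP_MSC, C57BL6J mice aged 8 weeks received 300 mg/kg APAP (acetaminophen, which injures hepatocytes at high dose) intraperitoneally and then 500000 MSC intravenously, 90 min after APAP. In APAP_HDF, mice received the same APAP dose and then 500000 HDF at the same time. In APAP, mice received APAP and no cells. Per the series' title, livers were taken at 24 h. MSC and HDF are the names in the labels, which do not spell them out. All 3 groups received APAP, so no group shows the clock of an uninjured liver. The clock hour of injection and of tissue collection, the light schedule and access to food are not given in the sources used here. Nothing in the labels says that the 3 libraries of a group came from separate animals, so p-values measure the spread between these libraries, which may be technical.

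The mammalian clock is a loop of transcription factors that runs in nearly every cell. ARNTL pairs with CLOCK or NPAS2 and switches on genes that carry E-boxes, among them the Per, Cry and Nr1d genes and Dbp, and PER and CRY proteins then shut the pair off. REV-ERB proteins repress Arntl, Npas2, Cry1 and other genes with a ROR response element (RORE), while DBP acts through D-boxes, as in Per3. In mouse liver Arntl and Npas2 therefore peak at about the time of day when Dbp is at its trough, and the hour at which a liver is taken sets the level of each. Feeding, glucocorticoids and body temperature also set the phase of the liver clock, and Per1 and Per2 respond to them directly.

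Promoter windows were looked up to show which of these elements the members carry close to their start sites. RefSeq windows on GRCm38.p6, from 250 bases before to 50 after a start, were held for 9 members in 13 windows, and Per2 was not among them. The E-box was searched as CACGTG, the D-box as TTATGTAA or TTACGTAA and the RORE as ANTNGGTCA, each on both strands, and no motif overlapped another in these windows. Matches were found in 4 members, which is why these are shown, and each is shown as 30 bases on the strand of the gene, 5′ to 3′, with the match in capitals.
Arntl RORE, chr7:113207529-113207558, plus strand, match from position 29 relative to the second of its listed starts: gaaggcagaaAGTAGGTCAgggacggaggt
Cry1 E-box, chr10:85185097-85185126, minus strand, match from position -60: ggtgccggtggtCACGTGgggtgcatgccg
Per1 E-box, chr11:69098771-69098800, plus strand, match from position -166 relative to the first of its listed starts: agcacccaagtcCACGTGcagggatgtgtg
Per3 D-box, chr4:151044852-151044881, minus strand, match from position -205: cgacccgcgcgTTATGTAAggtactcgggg
Per3 second D-box, chr4:151044805-151044834, minus strand, match from position -158: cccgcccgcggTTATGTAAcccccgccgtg
Of 32851 windows of the same length, 7.15% held the E-box, 1.06% the D-box and 2.24% the RORE. Npas2, Clock, Nr1d1, Nr1d2 and Dbp had no match in the windows searched. The counts were made on another build, GRCm39 per the submitters' processing notes, so these coordinates belong to the reference sequence only.

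Each library held 53267000 to 63176000 counts (5 digits kept), and a gene with 0 counts could lie at up to 3 counts, or 0.0453 to 0.0567 CPM (counts per 1000000 of the scaled library total), for counting error only. Libraries are numbered 1 to 3 in the column order of their group, and nothing ties these numbers to those in the titles. Hepatocytes are the labelled cell type, although RNA came from whole liver. Of 7 hepatocyte markers looked up, 6 were matched, and they summed to 97377 to 110319 CPM in APAP_MSC, 89929 to 118069 CPM in APAP_HDF and 93960 to 114232 CPM in APAP. Fewer cells of a type and less RNA per cell cannot be told apart in such bulk samples.

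Levels per length were compared with the exon lengths of GENCODE M21, an annotation other than the one used for counting. Nr1d1 averaged 9.60 CPM per kb over the 9 libraries (range 5.53 to 16.7) and Per1 averaged 9.11 (2.51 to 15.4), ahead of Per2 (6.73), Cry1 (6.66), Nr1d2 (5.74) and Clock (4.16). Arntl followed at 2.67 CPM per kb, then Dbp at 1.27, Npas2 at 1.01 and Per3 at 0.891 (0.399 to 1.29). The ranges of every pair of neighbours in this order overlapped.

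**Figure D1:**
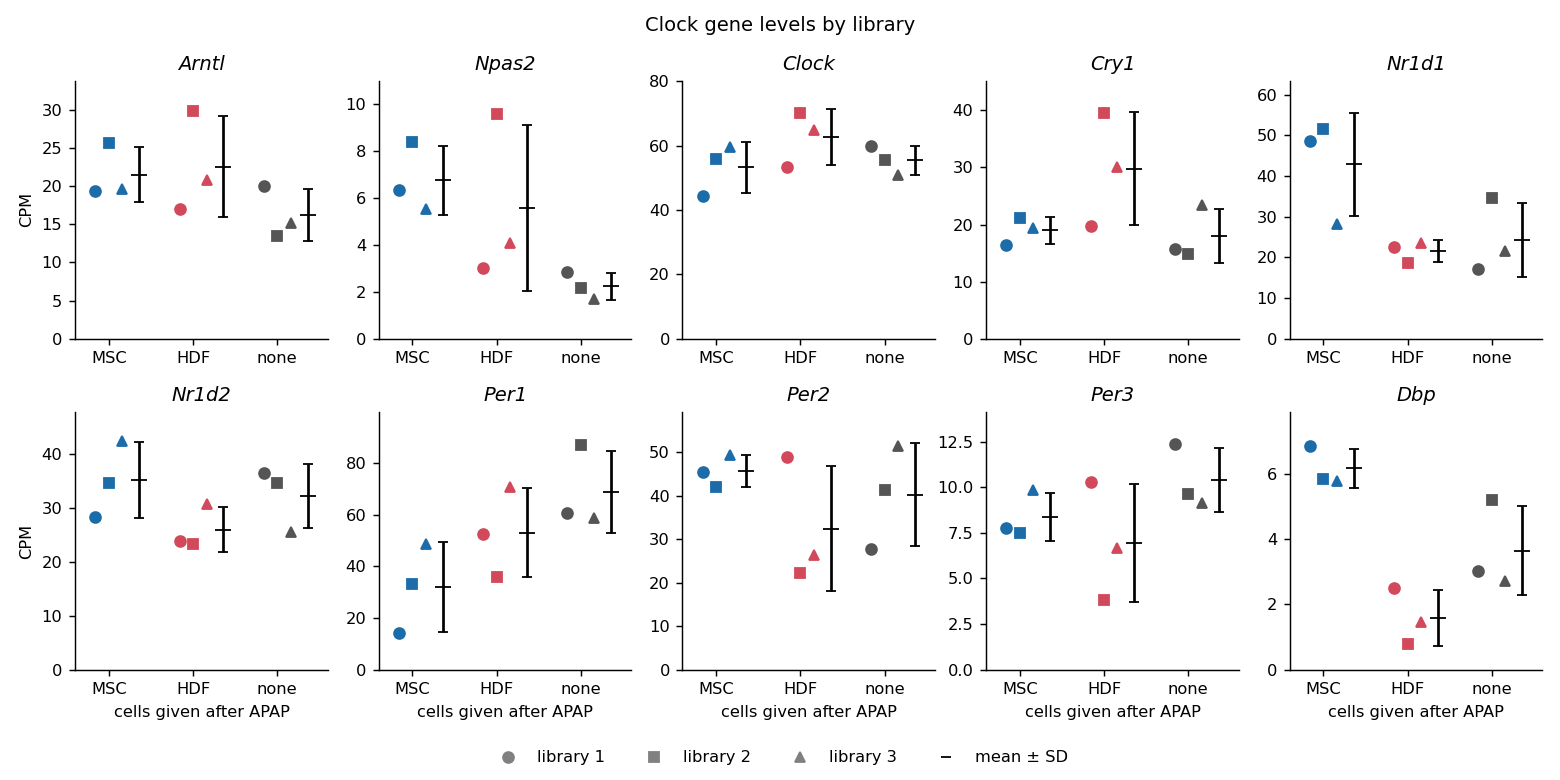
Level of each clock gene in CPM (linear axis from 0) in each library, by the cells given after APAP (MSC, HDF or none); symbols are the 3 libraries of a group, and the bar is their mean and SD. Npas2 is higher in all 3 APAP_MSC libraries (5.53 to 8.37) than in all 3 APAP libraries (1.71 to 2.83), and APAP_HDF library 2 holds the highest Arntl, Npas2, Clock and Cry1 and the lowest Per2, Per3, Nr1d2 and Dbp.

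Livers of APAP_MSC and APAP mice were set side by side to see what differed with MSC. One clock gene rose, the activator Npas2, and 0 fell, so 1 of 10 members passed the test against 6.38% of all tested genes (edgeR quasi-likelihood test, Benjamini-Hochberg adjusted p under 0.05 over all genes). Npas2, which can stand in for Clock as the partner of ARNTL, had 6.35, 8.37 and 5.53 CPM in APAP_MSC, against 2.83, 2.17 and 1.71 CPM in APAP. Every APAP_MSC library lay above every APAP library. The difference was 3.03-fold (log2 fold change 1.60 ± 0.41 SE, adjusted p = 0.0469). That call was lost in 7 of the 9 fits that left out 1 library, namely those without any single library of APAP or APAP_MSC or without APAP_HDF library 3, where adjusted p lay between 0.0514 and 0.167, and it was lost with limma-voom (adjusted p = 0.0565) and with no filter on low counts (0.119).

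The other activators, Arntl and Clock, did not pass. Arntl, the shared partner of CLOCK and NPAS2, had 19.4, 25.7 and 19.6 CPM in APAP_MSC, against 20.0, 13.4 and 15.2 CPM in APAP (log2 fold change 0.41 ± 0.22, adjusted p = 0.291). The groups overlapped through APAP library 1. Clock had 44.3, 55.8 and 59.4 CPM in APAP_MSC and 60.0, 55.6 and 50.9 CPM in APAP (-0.06 ± 0.13, adjusted p = 0.842).

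Of the repressors, Nr1d1 and Nr1d2 encode the receptors that hold down Arntl and Npas2. Nr1d1 had 48.7, 51.5 and 28.2 CPM in APAP_MSC, against 17.0, 34.5 and 21.4 CPM in APAP. It was highest in APAP_MSC libraries 1 and 2, and APAP_MSC library 3 lay below APAP library 2, so the groups overlapped (log2 fold change 0.82 ± 0.28, adjusted p = 0.124). DESeq2 called it (adjusted p = 0.0289), as did the edgeR fit without APAP library 2 (log2 fold change 1.17, adjusted p = 0.0375). Nr1d2 had 28.3, 34.6 and 42.3 CPM in APAP_MSC and 36.5, 34.6 and 25.5 CPM in APAP (0.12 ± 0.18, adjusted p = 0.731).

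Per1, the period gene that glucocorticoid hormones switch on directly, had 14.1, 33.2 and 48.7 CPM in APAP_MSC, against 60.6, 87.0 and 58.8 CPM in APAP. All 3 APAP_MSC libraries lay below all 3 APAP libraries, but they spread 3.45-fold among themselves, and the gene did not pass (log2 fold change -1.10 ± 0.42, adjusted p = 0.166). Its fellow repressors differed less. Per2 had 45.5, 42.0 and 49.4 CPM in APAP_MSC and 27.8, 41.4 and 51.4 CPM in APAP (0.18 ± 0.30, adjusted p = 0.776). Per3 had 7.75, 7.50 and 9.87 CPM in APAP_MSC and 12.4, 9.61 and 9.16 CPM in APAP (-0.31 ± 0.29, adjusted p = 0.585). Cry1, a cryptochrome repressor that blocks the ARNTL pair, had 16.5, 21.1 and 19.4 CPM in APAP_MSC and 15.6, 14.8 and 23.5 CPM in APAP (0.08 ± 0.25, adjusted p = 0.895). These last 3 genes overlapped between the groups.

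Dbp, an output factor of the PAR bZIP family, had 6.87, 5.85 and 5.78 CPM in APAP_MSC, against 3.01, 5.21 and 2.73 CPM in APAP. Every APAP_MSC library lay above every APAP library, yet the gene did not pass (1.70-fold, log2 fold change 0.76 ± 0.33, adjusted p = 0.19). Npas2, Dbp and Per1 were thus the 3 of 10 members whose libraries did not overlap between APAP_MSC and APAP, against 28.5% of all tested genes. The median log2 fold change of the 10 members was 0.15, against -0.01 over all tested genes.

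HDF served as the other cell type, and livers of APAP_HDF mice were likewise set against APAP. In this comparison 0 of 10 members passed, against 0% of all tested genes with edgeR. Here 4 of 10 members had an unadjusted p under 0.05, against 1544 of 17582 tested genes, and 0 members were called by DESeq2 or limma-voom. Npas2 had 3.02, 9.59 and 4.09 CPM in APAP_HDF, against 2.83, 2.17 and 1.71 CPM in APAP (log2 fold change 1.33 ± 0.41, adjusted p = 0.504). Dbp had 2.50, 0.796 and 1.47 CPM in APAP_HDF, against 3.01, 5.21 and 2.73 CPM in APAP (-1.19 ± 0.36, adjusted p = 0.504). Npas2 lay above and Dbp below APAP in all 3 APAP_HDF libraries, and these 2 of 10 members were the ones that did not overlap, against 11.7% of all tested genes.

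Cry1 had 19.7, 39.6 and 30.01 CPM in APAP_HDF, against 15.6, 14.8 and 23.5 CPM in APAP (log2 fold change 0.73 ± 0.25, adjusted p = 0.535). Arntl had 17.0, 29.9 and 20.8 CPM in APAP_HDF, against 20.0, 13.4 and 15.2 CPM in APAP (0.48 ± 0.22, adjusted p = 0.568). In both genes APAP_HDF library 2 was the highest of the 9 libraries, and library 1 lay within the APAP range. Clock had 53.2, 70.1 and 64.9 CPM in APAP_HDF and 60.0, 55.6 and 50.9 CPM in APAP (0.18 ± 0.13, adjusted p = 0.715).

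Per3 had 10.3, 3.84 and 6.65 CPM in APAP_HDF, against 12.4, 9.61 and 9.16 CPM in APAP (log2 fold change -0.58 ± 0.29, adjusted p = 0.605). Per2 had 48.8, 22.2 and 26.4 CPM in APAP_HDF, against 27.8, 41.4 and 51.4 CPM in APAP (-0.31 ± 0.30, adjusted p = 0.783). For both genes library 1 of APAP_HDF lay inside the APAP range and libraries 2 and 3 below it. Per1 had 52.4, 36.1 and 70.7 CPM in APAP_HDF (-0.37 ± 0.42, adjusted p = 0.821). Nr1d1, at 22.6, 18.5 and 23.4 CPM in APAP_HDF, lay within the APAP range (-0.18 ± 0.28, adjusted p = 0.891). Nr1d2 had 23.8, 23.3 and 30.7 CPM in APAP_HDF (-0.31 ± 0.18, adjusted p = 0.635).

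**Figure D2:**
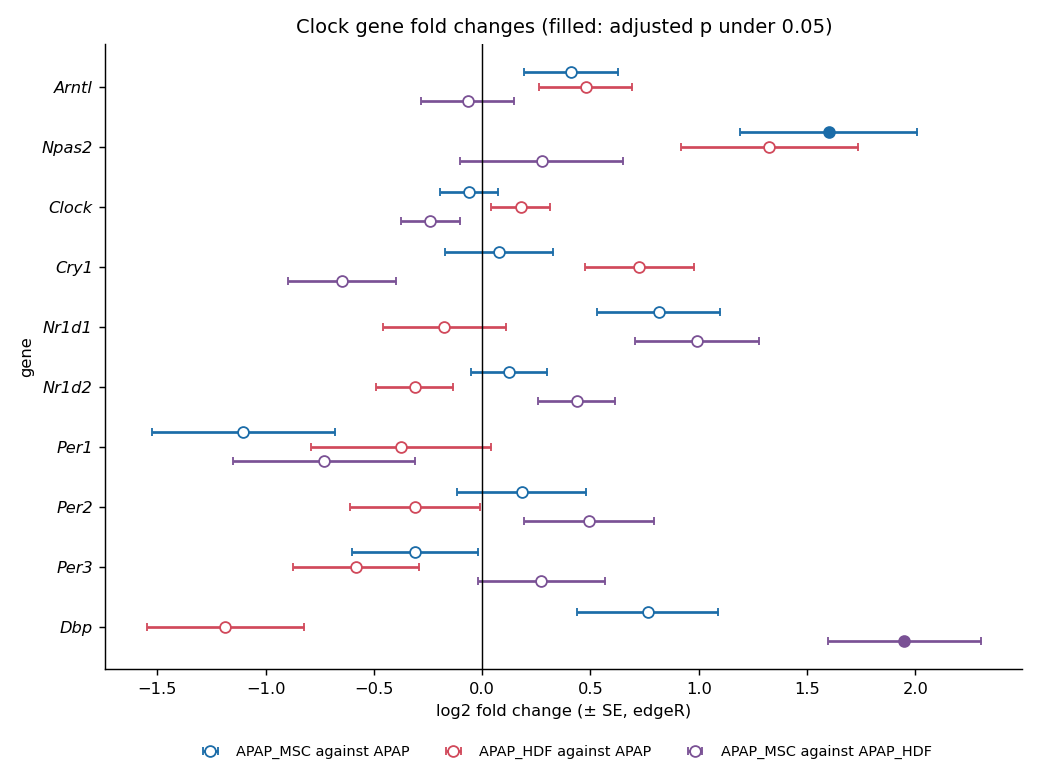
Log2 fold change of each clock gene (points, with the SE from edgeR as bars) in the 3 comparisons; filled points have an adjusted p under 0.05. The filled points are Npas2 in APAP_MSC against APAP (1.60) and Dbp in APAP_MSC against APAP_HDF (1.95), and the 3 comparisons share libraries, so their points are not independent.

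The comparison of APAP_MSC with APAP_HDF sets the cell-treated groups against each other. Dbp rose in APAP_MSC, and 0 members fell, so 1 of 10 members passed, against 8.89% of all tested genes. Dbp averaged 6.17 ± 0.606 CPM in APAP_MSC and 1.59 ± 0.859 CPM in APAP_HDF (SD, n = 3 each), a 3.86-fold difference (log2 fold change 1.95 ± 0.35, edgeR adjusted p = 0.00922). The lowest APAP_MSC library, at 5.78 CPM, lay above the highest APAP_HDF library, at 2.50 CPM. The call held in all 9 fits without 1 library, with adjusted p up to 0.041, and the log2 fold change was 1.62 without APAP_HDF library 2 (adjusted p = 0.0217).

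Nr1d1 was next, with 48.7, 51.5 and 28.2 CPM in APAP_MSC, against 22.6, 18.5 and 23.4 CPM in APAP_HDF. The libraries did not overlap, but the gene did not pass (1.99-fold, log2 fold change 0.99 ± 0.28, adjusted p = 0.0617). It passed with DESeq2 (adjusted p = 0.00436), with only the 6 libraries of these groups in the fit (0.0288), and in the fits without APAP library 1 (0.0457), APAP library 2 (0.0234) or APAP_MSC library 3 (0.0247). Dbp and Nr1d1 were the 2 of 10 members without overlap, against 33.2% of all tested genes.

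The other 8 members overlapped between APAP_MSC and APAP_HDF and did not pass. Cry1 averaged 19.0 ± 2.32 CPM in APAP_MSC and 29.8 ± 9.94 CPM in APAP_HDF (log2 fold change -0.65 ± 0.25, adjusted p = 0.135). Nr1d2 averaged 35.1 ± 7.01 CPM in APAP_MSC and 25.9 ± 4.16 CPM in APAP_HDF (0.44 ± 0.18, adjusted p = 0.149). Cry1 (-0.86, adjusted p = 0.0378) and Per2 (0.92, adjusted p = 0.0427) passed without APAP_HDF library 1. Per1 (-0.73 ± 0.42), Per2 (0.49 ± 0.30), Per3 (0.27 ± 0.29) and Clock (-0.24 ± 0.13) had adjusted p of 0.294 to 0.602. Npas2 (0.27 ± 0.38, adjusted p = 0.694) and Arntl (-0.07 ± 0.21, adjusted p = 0.879) had the largest adjusted p of the 10 members here. Without APAP_HDF library 2 the log2 fold change was 0.93 for Npas2 (adjusted p = 0.0714) and 0.19 for Arntl (adjusted p = 0.611).

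Spread within groups was widest for the clock genes in APAP_HDF. The median within-group SD of log2 CPM over the 10 members was 0.23 in APAP_MSC, 0.50 in APAP_HDF and 0.34 in APAP. Over all tested genes it was 0.18 in APAP_MSC, 0.22 in APAP_HDF and 0.23 in APAP. Between the lowest and the highest APAP_HDF library, Npas2 differed 3.17-fold, Dbp 3.14-fold, Per3 2.68-fold, Per2 2.20-fold and Cry1 2.01-fold, whereas Nr1d1 differed 1.27-fold. In APAP_MSC the same ratio was 1.51-fold for Npas2 and 1.19-fold for Dbp, and Per1 spread most, at 3.45-fold.

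A single library, APAP_HDF library 2, held the end values of most members. It had the highest level of the 9 libraries for Arntl, Npas2, Clock and Cry1, and the lowest for Per2, Per3, Nr1d2 and Dbp. These are 8 of 10 members, while this library held the highest or lowest level of 13.4% of all tested genes, the smallest share of any of the 9 libraries (17.6% to 28.6% in the rest). No other library held an end value of more than 3 members, and APAP_HDF libraries 1 and 3 held none. Over all tested genes APAP_HDF library 2 also lay closest to the rest of its group, with a root mean square log2 difference of 0.434, against 0.567 for library 1 and 0.518 for library 3. The count was 8 with DESeq2-type size factors and with no filter on low counts.

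**Figure D3:**
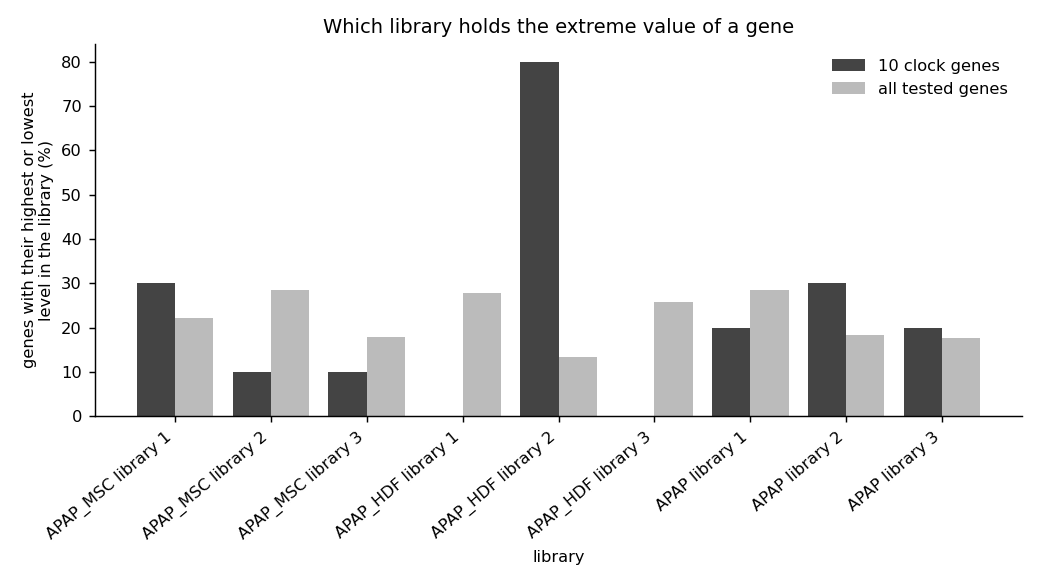
Share of genes (percent) whose highest or lowest level over the 9 libraries lies in a given library, for the 10 clock genes (dark bars) and for all tested genes (light bars). APAP_HDF library 2 holds 8 of the 10 clock genes and 13.4% of all tested genes.

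Of the genes highest in that library, 3 are activators and Cry1 is a repressor, and of those lowest, Per2, Per3 and Nr1d2 are repressors and Dbp is the output factor. The ratio of Arntl to Dbp CPM, whose size also carries the lengths of these genes and is compared only between libraries, was 2.82, 4.38 and 3.39 in APAP_MSC and 6.79, 37.5 and 14.2 in APAP_HDF, against 6.63, 2.58 and 5.56 in APAP. The ratio of Cry1 to Per3 was 2.13, 2.81 and 1.97 in APAP_MSC and 1.92, 10.3 and 4.51 in APAP_HDF, against 1.26, 1.54 and 2.56 in APAP. In both ratios APAP_HDF library 2 was highest of the 9 libraries. That rank follows from its end values for these genes, given above, and adds nothing to them. APAP_HDF library 3 was second in both ratios. APAP_HDF library 1 lay just above the highest APAP library for Arntl to Dbp and within the APAP range for Cry1 to Per3. Nfil3, a D-box repressor that REV-ERB proteins hold down, was also highest in APAP_HDF library 2, with 25.1, 47.3 and 40.2 CPM in APAP_HDF, 34.5, 39.1 and 27.3 CPM in APAP_MSC and 17.6, 21.1 and 24.5 CPM in APAP. Without APAP_HDF library 2, the log2 fold change of APAP_HDF against APAP was 0.67 for Npas2, 0.47 for Cry1, 0.22 for Arntl, -0.29 for Per3 and -0.86 for Dbp, with adjusted p of 0.724 to 0.832.

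**Figure D4:**
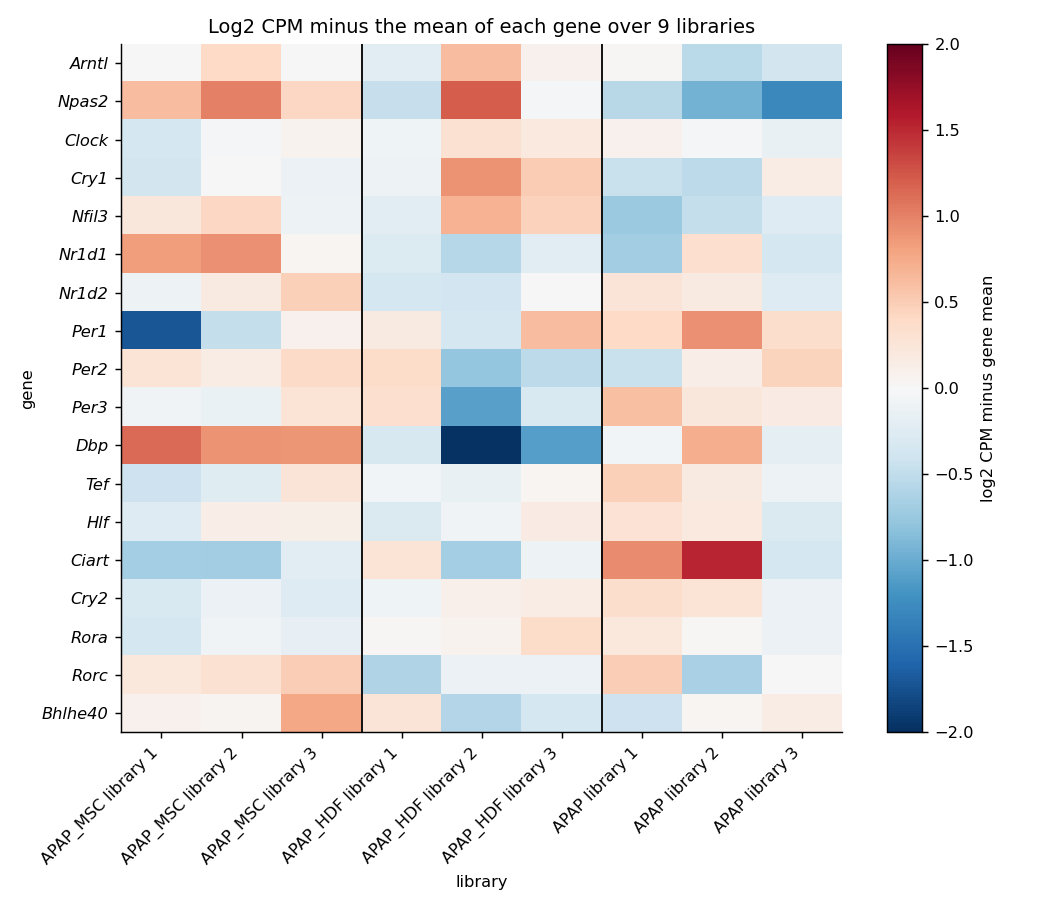
Log2 CPM minus the mean of the gene over the 9 libraries (colour, from -2 to 2) for the 10 members and 8 further loop genes, with the libraries in columns by group. APAP_HDF library 2 is red for Npas2, Cry1 and Nfil3 and blue for Per3 and Dbp, and the 3 APAP_MSC libraries are red for both Npas2 and Dbp.

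In APAP_MSC Npas2 and Dbp, whose peaks lie at opposed hours, were high together, although Dbp did not pass against APAP (edgeR adjusted p = 0.19). Arntl, which peaks with Npas2, overlapped between APAP_MSC and APAP (edgeR adjusted p = 0.291). Npas2 at 5.53 to 8.37 CPM and Dbp at 5.78 to 6.87 CPM both lay above all 3 APAP libraries, and the 3 APAP_MSC libraries held the 3 highest Dbp levels of the 9. Ratios of Npas2 to Dbp were 0.925, 1.43 and 0.957 in APAP_MSC and 1.21, 12.04 and 2.79 in APAP_HDF, against 0.94, 0.416 and 0.624 in APAP. The ratio of Per1 to Dbp was 2.06, 5.66 and 8.43 in APAP_MSC and 21.0, 45.3 and 48.2 in APAP_HDF, against 20.1, 16.7 and 21.5 in APAP. All 3 APAP_MSC libraries lay below the other 6 in the Per1 to Dbp ratio. That order follows from the Per1 and Dbp levels given above and adds nothing to them.

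Of 16 other loop genes, all tested, 0 rose and 0 fell in any of the 3 comparisons with edgeR. The share of all tested genes that passed was 6.38% in APAP_MSC against APAP, 0% in APAP_HDF against APAP and 8.89% in APAP_MSC against APAP_HDF. In APAP_MSC against APAP, 3 of 16 had an unadjusted p under 0.05, against 4030 of 17582 tested genes, and the list's median log2 fold change was -0.07. Ciart, a repressor of the ARNTL pair, had 2.16, 2.15 and 3.00 CPM in APAP_MSC against 6.67, 10.02 and 2.73 CPM in APAP (-1.40 ± 0.43, adjusted p = 0.0816). For Cry2, the other cryptochrome, the log2 fold change was -0.40 ± 0.13 (adjusted p = 0.0877). DESeq2 called 2 of the 16 in this comparison, Ciart and Nfil3, against 2050 of 17582 tested genes. With limma-voom 0 of the 16 were called, against 882 of all tested genes. In APAP_HDF against APAP, 2 of 16 had an unadjusted p under 0.05, against 1544 of 17582 tested genes. They were Nfil3 (0.83 ± 0.22, adjusted p = 0.482) and Ciart (-1.01 ± 0.41, adjusted p = 0.544). There DESeq2 and limma-voom called 0 of the 16, against 76 and 0 of all tested genes. In APAP_MSC against APAP_HDF, 3 of 16 had an unadjusted p under 0.05, against 4520 of 17582 tested genes. Here DESeq2 and limma-voom called 0 of the 16, against 2503 and 1426 of all tested genes. Bhlhe41 (-1.13 ± 0.39, adjusted p = 0.0909) and Rora (-0.36 ± 0.13, adjusted p = 0.102), an activator that competes with the REV-ERB proteins for ROREs, came closest. Tef and Hlf, the PAR bZIP relatives of Dbp, did not pass in any comparison. Tef had 44.5, 50.3 and 71.1 CPM in APAP_MSC and 57.7, 54.1 and 61.4 CPM in APAP_HDF, against 82.7, 67.8 and 55.9 CPM in APAP.

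In APAP_MSC against APAP, where 6.38% of all tested genes passed, 2 of 12 rhythmic liver outputs rose and 0 fell. They were Cyp7a1, whose enzyme starts and limits bile acid production, and Elovl3, a fatty acid elongase. The log2 fold change was 3.05 ± 0.34 for Cyp7a1 (adjusted p = 0.0034) and 4.36 ± 0.72 for Elovl3 (adjusted p = 0.0175). The list's median was -0.01 in that comparison. Elovl3 had 37.7, 57.2 and 39.5 CPM in APAP_MSC and 1.26, 12.4 and 11.7 CPM in APAP_HDF, against 1.70, 1.90 and 2.88 CPM in APAP. It thus lay above the APAP range in APAP_HDF libraries 2 and 3 but not in library 1 (APAP_HDF against APAP, log2 fold change 1.95 ± 0.70, adjusted p = 0.542). In APAP_MSC against APAP_HDF, 2 of 12 rose, Cyp7a1 (4.46 ± 0.38, adjusted p = 5.63e-04) and Insig2 (1.22 ± 0.25, adjusted p = 0.0196), and 1 fell, the mitotic kinase gene Wee1 (-0.95 ± 0.20, adjusted p = 0.0164). In that comparison 8.89% of all tested genes passed. INSIG2 holds back sterol-responsive factors, and Insig2 is a known REV-ERB target. Fits without 1 library lost the call of Elovl3 against APAP 3 times (APAP library 1, APAP_MSC libraries 1 and 2), that of Wee1 3 times (APAP_MSC libraries 1 and 2, APAP_HDF library 1) and that of Insig2 5 times (APAP_MSC libraries 1 and 2 and each APAP_HDF library), with the direction kept each time. In APAP_HDF against APAP 0 of 12 passed with edgeR, and 5 had an unadjusted p under 0.05, against 1544 of 17582 tested genes. Of the 12, limma-voom called 0 and DESeq2 called 1, Cyp7a1 (-1.41 ± 0.40 with edgeR, adjusted p = 0.495).

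Of 11 feeding-induced genes, 7 rose and 0 fell in APAP_MSC against APAP, and the same numbers held against APAP_HDF (median log2 fold changes 1.27 and 1.15). Over all tested genes 6.38% passed in APAP_MSC against APAP and 8.89% in APAP_MSC against APAP_HDF. Scd1, which makes monounsaturated fatty acids, led with 3.64 ± 0.30 against APAP (adjusted p = 7.69e-04), and Mlxipl, Me1, Thrsp and Pnpla3, all tied to making fat from sugar, were at 0.68 to 3.16. Srebf1, the insulin-driven regulator of fat synthesis, was called as well (log2 fold change 1.33 ± 0.27, adjusted p = 0.0223), and its call was lost without APAP library 1 or any 1 APAP_MSC library (1.30 to 1.46). The mean of log2 CPM minus each gene's mean was 1.29, 1.23 and 0.71 in APAP_MSC and -0.28, -0.80 and -0.85 in APAP_HDF, against -0.48, -0.29 and -0.53 in APAP. Against APAP the number that passed was 4 without APAP library 1, 3 without APAP_MSC library 1 and 2 without APAP_MSC library 2, and against APAP_HDF it was 5 to 10 in the 9 fits without 1 library.

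Of 12 fasting-induced genes, 0 rose and 1 fell in APAP_MSC against APAP. It was Angptl4, an inhibitor of lipoprotein lipase (-1.33 ± 0.31, adjusted p = 0.0379), and the call was lost in 6 of the 9 fits without 1 library. The log2 fold change was negative for 8 of the 12 and positive for 4. G6pc was higher without passing, with 64.1, 164 and 150 CPM in APAP_MSC against 14.3, 54.4 and 39.7 CPM in APAP (1.80 ± 0.91, adjusted p = 0.296). Against APAP_HDF 4 fell and 0 rose: Angptl4, Cyp4a10, Cpt1a and Igfbp1, with log2 fold changes of -1.52 to -0.82, and this number was 0 without APAP_MSC library 2, 1 without APAP_MSC library 1, APAP_HDF library 1 or APAP_HDF library 3, 2 without APAP_MSC library 3 or APAP_HDF library 2, and 0 with no filter on low counts. Over all tested genes 6.38% passed in APAP_MSC against APAP and 8.89% in APAP_MSC against APAP_HDF. The level of the list was -0.31, -0.28 and -0.27 in APAP_MSC and -0.07, 0.49 and 0.86 in APAP_HDF, against -0.17, -0.35 and 0.10 in APAP. APAP_HDF libraries 2 and 3, which had the highest Arntl to Dbp ratios, were thus the highest for fasting-induced genes and the lowest for feeding-induced genes. In APAP_HDF against APAP 0 members of either list passed with edgeR or limma-voom. There 1 of 11 feeding-induced and 3 of 12 fasting-induced genes had an unadjusted p under 0.05, against 1544 of 17582 tested genes. DESeq2 called 1 of each, Scd1 (log2 fold change -1.0 with edgeR, adjusted p = 0.493) and Fgf21, a hormone of the fasted liver (2.85 ± 0.63 with edgeR, adjusted p = 0.463). Whether feeding had a part in the clock values was not tested.

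**Figure D5:**
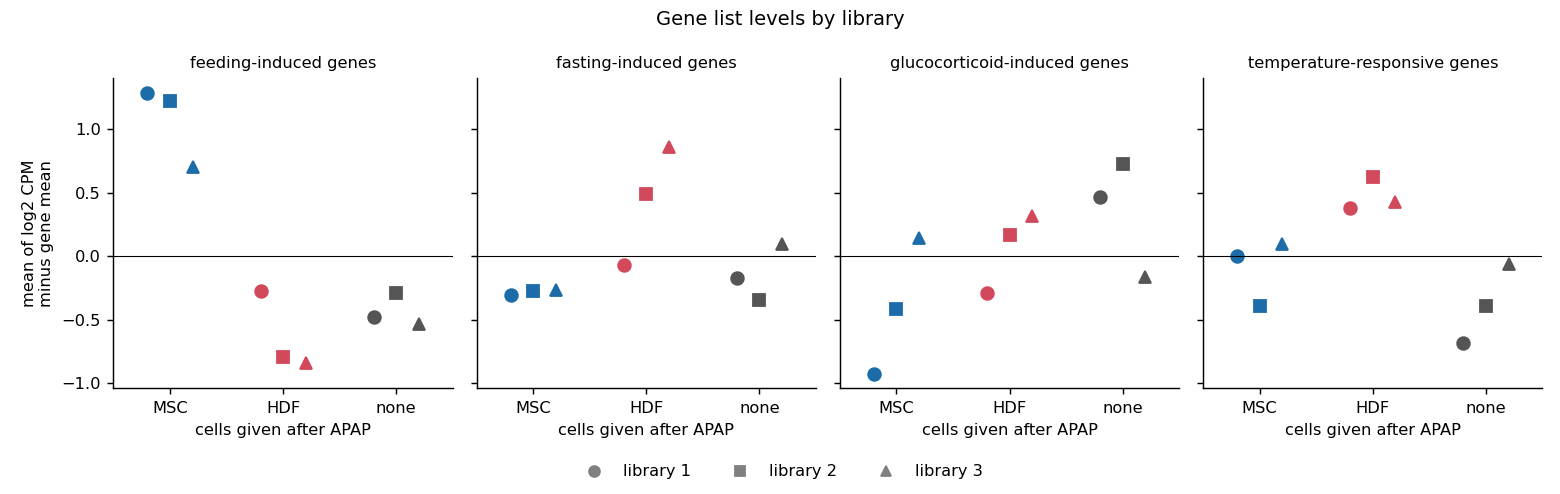
Mean over the genes of a list of log2 CPM minus the mean of each gene, in each library, for 4 gene lists (11 feeding-induced, 12 fasting-induced, 6 glucocorticoid-induced and 7 temperature-responsive genes), by the cells given after APAP. Feeding-induced genes lie at 0.71 to 1.29 in APAP_MSC, above the other 6 libraries, and fasting-induced genes lie highest in APAP_HDF libraries 2 and 3. The temperature-responsive list holds both cold-induced Rbm3 and heat shock genes, so its mean does not give a direction of temperature.

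Of 6 glucocorticoid-induced genes, Fkbp5, a receptor co-chaperone and standard readout of the hormone, fell in APAP_MSC against APAP (63.3, 52.2 and 74.9 CPM against 129, 120.3 and 133 CPM, log2 fold change -1.004 ± 0.16, adjusted p = 0.00915) and against APAP_HDF (-1.18 ± 0.16, adjusted p = 0.00247). The call against APAP was lost without APAP_MSC library 2 (-0.87). No other member of that list passed with edgeR, and DESeq2 also called Dusp1 in both comparisons. With edgeR 6.38% of all tested genes passed in APAP_MSC against APAP, 8.89% in APAP_MSC against APAP_HDF and 0% in APAP_HDF against APAP. In APAP_MSC against APAP, 5 of the 6 log2 fold changes were negative, and that of Tsc22d3 was positive (0.19 ± 0.35, adjusted p = 0.804). Against APAP_HDF 4 were negative, and those of Tsc22d3 (0.56 ± 0.35, adjusted p = 0.364) and Tat (0.58 ± 0.50, adjusted p = 0.522) were positive. The level of the list was -0.93, -0.42 and 0.14 in APAP_MSC and -0.29, 0.17 and 0.31 in APAP_HDF, against 0.46, 0.72 and -0.17 in APAP. APAP_MSC library 1, lowest on this list, had the lowest Per1 of the 9 libraries, 14.1 CPM, and APAP library 2, highest on the list, had the highest Per1, 87.0 CPM. APAP_MSC library 2, second lowest on the list (-0.42), also had the second lowest Per1, 33.2 CPM. APAP library 1 (0.46) and APAP_HDF library 3 (0.31), next highest on the list, had 60.6 and 70.7 CPM of Per1. Libraries in between did not keep that order. APAP_HDF library 1 (-0.29) had 52.4 CPM and APAP library 3 (-0.17) had 58.8 CPM. APAP_MSC library 3 (0.14) had 48.7 CPM and APAP_HDF library 2 (0.17) had 36.1 CPM. Of 7 temperature-responsive genes, Rbm3, a cold-induced RNA-binding protein, fell in APAP_MSC against APAP (-0.81 ± 0.11, adjusted p = 0.0056) and no other member passed in any comparison with edgeR. Rbm3 was also lower in all 3 APAP_HDF libraries than in all 3 APAP libraries, without passing (-0.44 ± 0.11, adjusted p = 0.463). Cirbp, of the same list, was at -0.09 ± 0.21 in APAP_MSC against APAP (adjusted p = 0.851). The heat shock genes Hspa1a and Hspa1b had log2 fold changes of 2.27 ± 0.45 and 2.20 ± 0.43 in APAP_HDF against APAP (adjusted p = 0.44 for each), were called there by DESeq2, and were highest in APAP_HDF library 2. The part of these signals in the clock values was not tested.

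Some markers of other liver cells passed in the comparisons with APAP_MSC, and 0 passed in APAP_HDF against APAP with edgeR. Over all tested genes 6.38% passed in APAP_MSC against APAP, 8.89% in APAP_MSC against APAP_HDF and 0% in APAP_HDF against APAP. Of 7 macrophage markers, 2 fell and 0 rose in APAP_MSC against APAP, and the 7 summed to 74.5 to 107 CPM in APAP_MSC and 91.7 to 131 CPM in APAP_HDF, against 134 to 203 CPM in APAP. Of 6 neutrophil markers 3 fell and 0 rose in that comparison, and they summed to 2.80 to 4.34 CPM in APAP_MSC and 3.10 to 11.7 CPM in APAP_HDF, against 9.99 to 12.9 CPM in APAP, with Cxcr2 and Retnlg at 0 in at least 1 APAP_MSC library. Of 6 sinusoidal endothelial markers 2 fell and 0 rose there, and they summed to 80.0 to 87.8 CPM in APAP_MSC and 110 to 152 CPM in APAP_HDF, against 107 to 171 CPM in APAP. Stellate cell markers, also 6, summed to 163 to 185 CPM in APAP_MSC and 139 to 195 CPM in APAP_HDF, against 183 to 256 CPM in APAP, and 6 cholangiocyte markers to 116 to 132 CPM in APAP_MSC and 99.5 to 104 CPM in APAP_HDF, against 95.0 to 149 CPM in APAP. In APAP_MSC against APAP_HDF, where Dbp was called, 4 of 6 cholangiocyte markers rose and 0 fell (median log2 fold change of the list 1.02). Sox9 was the 1 cholangiocyte marker with a negative log2 fold change there (-0.63 ± 0.19, adjusted p = 0.0611). In the same comparison 2 of 6 sinusoidal endothelial and 1 of 7 macrophage markers fell, and 0 neutrophil and 0 stellate cell markers passed. In APAP_MSC against APAP, 1 of 6 stellate cell markers fell and 0 cholangiocyte markers passed. The part of cell composition in the clock values was not tested.

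Genes with the pattern most like that of a member over the 9 libraries were found among 9036 genes with at least 5 CPM on average, by the root mean square difference of standardised log2 CPM. Among those nearest to Arntl were Cbx2, Grb7, Prkd3 and Slc25a42, with differences of 0.377 to 0.452. Of these, 3 were lowest in an APAP library and Slc25a42 in APAP_HDF library 1, and 3 were highest in APAP_HDF library 2 and Grb7 in APAP_MSC library 2. Nearest to Dbp were Stoml2, Hemk1, Tceal8, Fgfr1 and Nudcd2, with differences of 0.297 to 0.366. The spans of these genes were smaller, with Stoml2 at 62.6 to 63.8 CPM in APAP_MSC and 51.4 to 55.3 CPM in APAP_HDF, against 55.8 to 58.7 CPM in APAP. None of these 9 genes is one of the other loop genes.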

How the data were processed

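RNA of 9 mouse liver samples was extracted with TRIZOL and made into libraries with Tecan universal plus mRNA-seq, per the labels' protocols. The authors deposited raw counts per gene, and the submitters' processing notes name HISAT2, Subread, DESeq2 and the builds mm39 and GRCm39, with versions, strand setting and annotation not given in the sources used here. A normalised table was not used. Column names give the group only, so libraries are numbered in column order. All 28956 genes were filtered (edgeR filterByExpr by group, 17582 kept), scaled with TMM and fitted in 1 edgeR 4.0.16 quasi-likelihood model of group over 9 libraries (R 4.3.3), with Benjamini-Hochberg adjustment over all tested genes and a threshold of 0.05. CPM use TMM-scaled totals, and log2 CPM a prior count of 2. The fit was tested on simulated data. Alternatives were DESeq2 1.42.0, limma-voom 3.58.1, other size factors, no filter, 6 libraries only and each library left out. Named genes are the members, the listed genes that passed or had the smallest p, and the 5 nearest in pattern to Arntl and Dbp. Tef, Hlf, Dusp1, Tsc22d3, Tat, G6pc, Sox9, the promoters with a match and markers at 0 were named after their values were seen. Some genes that this rule names are not reported here. The members and lists were chosen with earlier results of these data known. Counting could split reads between similar or overlapping genes. Counting intervals and floors cover counting error only.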

Additional observations from a re-analysis of the deposited data

How the results depend on the processing

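No paired analysis was possible because the columns carry no replicate numbers. The number of clock genes that passed in APAP_MSC against APAP (1) was 2 with DESeq2 (Npas2 and Nr1d1), 0 with limma-voom, 0 with no filter on low counts and 0 to 1 in the 9 fits without 1 library. In APAP_HDF against APAP it was 0 in every setting run. In APAP_MSC against APAP_HDF it was 1, and 2 with DESeq2 or with only the 6 libraries compared (Nr1d1 and Dbp), and 1 to 3 without 1 library, with Dbp among them each time. Over all genes, APAP_MSC against APAP gave 1121 genes, 2050 with DESeq2 and 97 (without APAP_MSC library 2) to 1753 (without APAP_HDF library 1). APAP_HDF against APAP gave 0 genes, 76 with DESeq2 and 0 to 32 without 1 library (32 without APAP library 3), with 1544 at an unadjusted p under 0.05 and 0 with limma-voom. APAP_MSC against APAP_HDF gave 1563 genes, 2503 with DESeq2 and 361 (without APAP_MSC library 2) to 1793 without 1 library. Of the other lists, DESeq2 called 2 loop genes (0 with edgeR), 2 fasting-induced (1) and 2 glucocorticoid-induced genes (1) in APAP_MSC against APAP, 2 temperature-responsive genes (0) in APAP_HDF against APAP, and 5 rhythmic outputs (3), 2 glucocorticoid-induced (1) and 3 temperature-responsive genes (0) in APAP_MSC against APAP_HDF. Some small log2 fold changes changed sign without 1 library, and none of these passed in either direction. In APAP_MSC against APAP they ranged from -0.13 to 0.055 for Clock, -0.031 to 0.32 for Cry1, -0.0067 to 0.40 for Per2 and -0.018 to 0.26 for Nr1d2. In APAP_HDF against APAP the range was -0.37 to 0.16 for Nr1d1. In APAP_MSC against APAP_HDF it was -0.22 to 0.19 for Arntl, -0.016 to 0.93 for Npas2 and -0.019 to 0.69 for Per3. The cause was not tested. With 3 libraries a group, a missed threshold does not show equal levels.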
